A study of Mus musculus with 32 samples.

Results

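A set of 9 genes of scavenger receptors and macrophage lipid handling was followed after ischemic stroke in mice, in whole brain tissue and in sorted subdural CNS-associated macrophages (sdCAMs). They were taken by name from the 33280 gene rows of each count table, and all 9 were present. They were the receptors Cd36, Msr1, Marco and Scarb1, the lipid droplet coat protein Plin2, the cholesterol exporters Abca1 and Abcg1 and the fatty acid binding proteins Fabp5 and Fabp4.

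Scavenger receptors are surface receptors with which macrophages bind and take up modified lipoproteins, dying cells and other debris. The cholesterol and fatty acids that come in with this cargo are bound by carrier proteins, stored as esters and triglycerides in lipid droplets, or handed to apolipoproteins at the cell surface by ABC transporters. In injured brain, debris rich in myelin lipid is the main load of this kind that phagocytes meet, and macrophages filled with lipid droplets are known as foam cells.

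The mice were wild type (C57BL/6JCrl), and mice of the study were 10 ± 3 weeks old at the first gavage. CTL mice received vehicle. BLZ945 mice received the CSF1R inhibitor BLZ945 by gavage at 200 mg per kg body weight daily for 7 days, a treatment that removes microglia and CAMs and is followed by repopulation. All mice had a thromboembolic occlusion of the middle cerebral artery 8 weeks later, and material was taken on day 1 after it. Each of 4 CTL mice (A2, A3, A4 and B1) and 4 BLZ945 mice (C2, C3, C4 and D1) gave tissue and sdCAMs from the ipsilateral (lesioned) and the contralateral hemisphere, and the contralateral hemisphere served as the reference. The authors' methods for stroke mention pooling of sorted cells from BLZ945 mice, which a figure legend gives for reporter mice. Whether it applies to these wild-type sdCAM libraries is not settled, and each replicate is counted here as a mouse. The main test compared the means of the groups and did not pair the hemispheres of a mouse. A fit with a block for the mouse, which does pair them, was an alternative. No group without stroke was used.

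sdCAMs were sorted from brain without choroid plexus as CD45+CD11b+CD206+ cells negative for Ly6C, Ly6G and CD11c, and comprise leptomeningeal and perivascular macrophages. Total counts on genes were 9288717 to 12781505 in the 16 tissue libraries and 7397393 to 11081409 in 14 sdCAM libraries. A count of 3 there corresponds to 0.235 to 0.323 and 0.271 to 0.406 CPM of the total count. The levels of genes are CPM relative to the effective library size, so that they and this floor differ in scale. The ipsilateral sdCAM libraries of A3 and C2 had total counts of 54055 and 55155 and were left out. The hemispheres of the A3 tissue libraries are opposite in the library names of the labels and in the column names of the table, and those of the labels were used. Levels are given as normalised CPM with the SD between mice. Genes passed the test, and are said to be called, where the two-sided quasi-likelihood test of edgeR gave an adjusted p (Benjamini-Hochberg, over all genes tested) below 0.05 and the log2 fold change was beyond 0.59.

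In tissue, 2 of the 9 genes rose in the ipsilateral hemisphere, Msr1 and Plin2, and both did so in CTL and in BLZ945 mice. The share of all 18968 genes tested that were called up was 0.443% in CTL mice, 1.12% in BLZ945 mice and 1.93% for the mean of both treatments. None of the 8 members that could be tested fell, against 0.0369% of all genes in BLZ945 mice and 0.0738% for the mean of both treatments. With a block for the mouse, the numbers of genes called were larger, at 178 up and 7 down in CTL mice and 378 up and 36 down in BLZ945 mice, against 84 up and 0 down and 213 up and 7 down without it. The count of 0 down in CTL mice stood beside 1182 genes with an unadjusted p under 0.05 in either direction and 2 genes called down by DESeq2.

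Msr1 encodes the class A scavenger receptor of macrophages, also known as SR-A1 or CD204, which binds modified low density lipoprotein and a wide range of other polyanionic ligands. In the ipsilateral tissue of CTL mice A2, A3, A4 and B1 its level was 4.76, 6.60, 3.71 and 6.59 CPM, and in their contralateral tissue 0.396, 0.170, 0.516 and 0.0925 CPM. In BLZ945 mice C2, C3, C4 and D1 it was 7.27, 6.42, 5.57 and 7.29 CPM on the ipsilateral side and 0.214, 0.105, 0 and 0.375 CPM on the contralateral side. All ipsilateral libraries were above all contralateral libraries, and the level was higher on the lesioned side in 8 of 8 mice. The contralateral levels rested on 0 to 5 counts per library and were at or near the floor of 3 counts.

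The log2 fold change of Msr1 was 4.17 in CTL mice (SE 0.43, adjusted p = 0.000121) and 5.17 in BLZ945 mice (SE 0.47, adjusted p = 2.25e-05). As summed counts, CTL mice had 260 on the ipsilateral and 13 on the contralateral side, a ratio of 18.7 after normalisation (95% interval 10.8 to 35.7, counting error only). BLZ945 mice had 267 and 7, a ratio of 38.4 (18.4 to 96.4). Both intervals overlapped, and the difference between the responses, 1.00 on the log2 scale (SE 0.72), was not called (adjusted p = 1).

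Plin2 encodes perilipin 2 (adipophilin), the coat protein of lipid droplets in macrophages and most other cells that are not adipocytes. Its level in tissue was 11.1, 12.1, 10.2 and 13.1 CPM in the ipsilateral and 5.71, 4.67, 4.95 and 5.09 CPM in the contralateral libraries of CTL mice. In BLZ945 mice it was 19.6, 11.2, 11.6 and 14.3 CPM against 6.86, 4.60, 5.77 and 4.87 CPM. The groups did not overlap in either treatment, C2 stood highest of all 16 libraries on its ipsilateral side, and 8 of 8 mice had more Plin2 on the lesioned side. The log2 fold change was 1.18 in CTL mice (SE 0.18, adjusted p = 0.00451) and 1.36 in BLZ945 mice (SE 0.18, adjusted p = 0.000714). In CTL mice the call was lost without A3 (log2 fold change 1.12, adjusted p = 0.0753) or without B1 (1.12, adjusted p = 0.0911), within a range of 2.21e-06 to 1 over 18 settings.

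**Figure D1:**
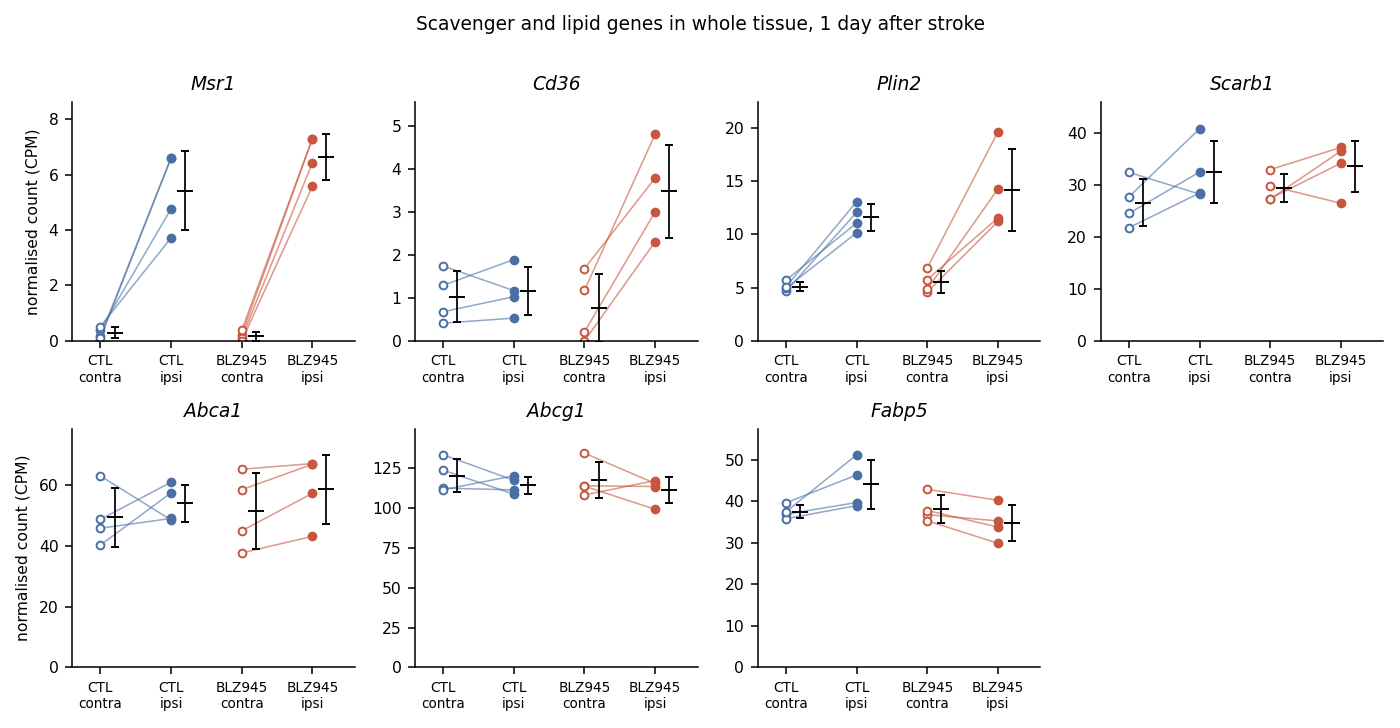
Levels of 7 of the 9 genes in whole tissue, in normalised CPM on a linear axis from 0, for each of the 16 libraries. Lines join the hemispheres of a mouse and bars give the mean ± SD of 4 mice. Msr1 and Plin2 were higher on the ipsilateral side in 8 of 8 mice, whereas Cd36 separated by hemisphere only in BLZ945 mice, where the contralateral libraries lay between 0 and 1.69 CPM and the ipsilateral between 2.31 and 4.82 CPM. These contralateral libraries held 0 to 18 counts of Cd36. Cd36 was not called in either treatment, nor was the difference between the treatments.

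Cd36, a class B scavenger receptor that binds oxidised lipoproteins and also takes up long-chain fatty acids, separated by hemisphere in the tissue of BLZ945 mice and not in that of CTL mice, although the difference between the treatments did not pass the test. CTL mice had 1.17, 1.03, 0.531 and 1.89 CPM in ipsilateral and 1.74, 0.680, 0.413 and 1.29 CPM in contralateral tissue, and these values overlapped. BLZ945 mice had 4.82, 3.01, 2.31 and 3.80 CPM on the ipsilateral side and 1.18, 0.209, 0 and 1.69 CPM on the contralateral side, with no overlap and the higher value on the lesioned side in 4 of 4 mice. The share of all genes that separate in this way was not counted. The summed counts were 56 and 48 in CTL mice, a ratio of 1.09 (95% interval 0.730 to 1.64), and 141 and 31 in BLZ945 mice, a ratio of 4.58 (3.08 to 6.99).

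For BLZ945 mice the log2 fold change of Cd36 was 2.17 (SE 0.64, adjusted p = 0.138) and was not called. With a block for the mouse it was 2.37 (SE 0.47) and called (adjusted p = 0.00540), as it was by DESeq2 (2.19, adjusted p = 0.0269), and over 18 settings the adjusted p ranged from 0.00540 to 0.411. Without C2 it was 2.23 (adjusted p = 0.411). The mean response of both treatments, 1.16 (SE 0.46, adjusted p = 0.236), likewise passed with the block (1.27, adjusted p = 0.0256, range 0.0256 to 0.449). The response of Cd36 in CTL mice was 0.15 (SE 0.64, adjusted p = 0.999), and the difference between the treatments, 2.02 (SE 0.91), had an unadjusted p of 0.0409 and an adjusted p of 1.

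The other members were not called between the hemispheres in tissue. Scarb1, the receptor for high density lipoprotein, had 32.6 ± 5.89 CPM ipsilateral and 26.7 ± 4.58 CPM contralateral in CTL mice and 33.7 ± 4.93 and 29.4 ± 2.67 CPM in BLZ945 mice (SD, n = 4 each). Its log2 fold change was 0.24 for the mean of both treatments (SE 0.10, adjusted p = 0.268), with the higher value on the lesioned side in 6 of 8 mice. Abca1, which loads cholesterol onto lipid-poor apolipoproteins, had 54.1 ± 6.20 and 49.6 ± 9.72 CPM in CTL mice and 58.7 ± 11.3 and 51.7 ± 12.6 CPM in BLZ945 mice. Abcg1, which passes cholesterol to mature high density lipoprotein, was the most abundant member in tissue, with 114 ± 5.32 and 120 ± 10.3 CPM in CTL mice and 111 ± 8.24 and 118 ± 11.6 CPM in BLZ945 mice. The log2 fold change of the mean was 0.15 for Abca1 (SE 0.12, adjusted p = 0.663) and -0.08 for Abcg1 (SE 0.06, adjusted p = 0.650), so that any mean change of Abcg1 was small beside that of Plin2, at 1.27 (SE 0.13).

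Fabp5, the epidermal fatty acid binding protein, had opposite signs in the 2 treatments. CTL mice had 39.7, 46.3, 38.9 and 51.2 CPM in ipsilateral and 36.9, 39.6, 35.8 and 37.5 CPM in contralateral tissue, higher on the lesioned side in 4 of 4 mice. BLZ945 mice had 35.2, 40.2, 29.9 and 33.8 CPM and 36.7, 42.9, 35.3 and 37.7 CPM, higher on the lesioned side in 0 of 4 mice. The groups of the 2 hemispheres overlapped in both treatments and neither response passed the test, with log2 fold changes of 0.23 (SE 0.10, adjusted p = 0.744) and -0.13 (SE 0.10, adjusted p = 0.738). The difference between them, -0.37 (SE 0.15), had an unadjusted p of 0.0229 and an adjusted p of 1.

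Marco and Fabp4 were barely present in tissue. Marco, a class A scavenger receptor of marginal zone and alveolar macrophages, had 0 to 3 counts per tissue library and fell under the filter on low counts. Fabp4, the fatty acid binding protein of adipocytes and some macrophages, had 0 to 2 counts per library, all under the floor of 3 counts, so that no fold is given.

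No member was called between BLZ945 and CTL tissue of the same hemisphere, and none was called for a difference in its response to the lesion. The same test called 0 of 18968 genes in the ipsilateral comparison (858 at an unadjusted p under 0.05, and 1 called by DESeq2), 0 in the contralateral comparison (616, and 0 by DESeq2) and 0 in the comparison of the responses (386, and 0 by DESeq2). Among the members, the lowest unadjusted p-values on the ipsilateral side were those of Fabp5, lower in BLZ945 mice by a log2 fold change of -0.34 (SE 0.10), and Cd36, higher by 1.58 (SE 0.60). Both had an adjusted p of 0.958.

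Markers of other cells moved with the hemisphere in tissue. Of 8 monocyte markers, 3 rose (F10, Plac8 and Fn1), and the summed level of the list was 131 to 162 CPM ipsilateral against 80.3 to 110 CPM contralateral in CTL mice and 149 to 230 CPM against 89.6 to 110 CPM in BLZ945 mice. Of 10 border macrophage markers 1 rose (Lyz2), whereas 2 of 10 microglial markers fell (P2ry12 and Siglech). Of 12 endothelial markers 2 rose (Cdh5 and Pecam1), and of 8 astrocyte markers 1 did (Gfap). Of the neutrophil markers, 2 of the 6 tested rose (Cxcr2 and S100a9), at summed levels of 4.82 to 9.89 CPM over all 16 libraries. Fewer or more cells of a type and less or more RNA per cell cannot be told apart in bulk tissue. The part of these cells in the levels of Msr1, Plin2 and Cd36 was not tested.

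The calls of members in tissue depended on the hemispheres of A3, in CTL mice through their size and in BLZ945 mice through the adjusted p alone. With the A3 libraries exchanged, as the column names of the table have them, the log2 fold change of Msr1 in CTL mice was 0.98 (SE 0.85, adjusted p = 1, range 1.48e-15 to 1 over 18 settings), that of Plin2 was 0.48 (SE 0.32, adjusted p = 1), and the numbers of genes called in CTL mice, BLZ945 mice and the mean were 0, 6 and 1 of 18968. In BLZ945 mice the log2 fold changes were then 5.17 for Msr1 (SE 1.17, adjusted p = 0.0879) and 1.36 for Plin2 (SE 0.32, adjusted p = 0.0942), as large as before, the highest adjusted p-values over 18 settings that reached down to 3.32e-15 and 6.98e-09. Without A3 altogether, Msr1 was called in CTL mice at 3.87 (SE 0.50, adjusted p = 0.00373).

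Stretches of 300 bases around the start sites of Plin2 and Cd36 (RefSeq, GRCm38.p6) are shown because these were the called or strongest moving members whose promoter was held in the reference table, which had 4 of the 9 members. Each runs 5′ to 3′ on the strand of the gene, from 250 bases before the start site to 50 after it. Capitals mark TGACCT, the reverse complement of AGGTCA, the core element bound by nuclear receptors such as the PPAR and LXR families.

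Plin2, chr4:86670010-86670309, minus strand: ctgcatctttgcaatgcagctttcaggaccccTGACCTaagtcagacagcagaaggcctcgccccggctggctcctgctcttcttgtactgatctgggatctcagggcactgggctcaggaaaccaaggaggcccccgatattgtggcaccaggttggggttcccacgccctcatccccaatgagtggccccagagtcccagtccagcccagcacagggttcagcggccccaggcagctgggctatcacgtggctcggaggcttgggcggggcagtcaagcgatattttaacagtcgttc

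Cd36, chr5:17835847-17836146, minus strand: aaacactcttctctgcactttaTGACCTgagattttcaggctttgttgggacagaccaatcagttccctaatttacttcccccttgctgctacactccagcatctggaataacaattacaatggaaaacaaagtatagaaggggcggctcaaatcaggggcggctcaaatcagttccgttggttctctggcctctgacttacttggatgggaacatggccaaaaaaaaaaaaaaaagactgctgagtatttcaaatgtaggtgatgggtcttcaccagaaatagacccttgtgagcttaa

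Searched on both strands, AGGTCA was found once in each, at -218 in Plin2 and at -228 in Cd36 from the start site, and in 16.3% of all 32851 promoters of this length. Plin2 also held the hypoxia response core ACGTG at -3 and, overlapping it on the other strand, at -4 (19.6% of all promoters), and Cd36 an NF-kB motif (GGGA and CC spaced by 4 bases) at -203 (20.7%). The PPAR and LXR direct repeats of AGGTCA, spaced by 1 and by 4 bases, and the AP-1 motif TGANTCA were in neither. They were present in 0.0396%, 0.0152% and 7.81% of all promoters. A match of letters is a description of the window and not a site of binding.

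In sdCAMs, 2 of the 9 genes rose in the ipsilateral hemisphere for the mean of both treatments, Msr1 and Cd36, against 3.91% of 18297 genes called up, and none fell, against 11.1% called down. With the libraries scaled to 10 border macrophage markers, an alternative chosen after the data had been seen, 10 genes were up and 6435 down in place of 715 and 2030, the median log2 fold change of all genes was -1.14 in place of -0.16, and neither Msr1 nor Cd36 was called. In CTL mice alone Msr1 was called (0.426% of genes up, 2.36% down and 2.79% in either direction), and in BLZ945 mice alone no member was (1.20% up, 4.41% down and 5.61% in either direction). The sdCAM counts of BLZ945 mice stood beside 4088 genes with an unadjusted p under 0.05, and DESeq2 called 1 member, Cd36. With the block for the mouse, 293 genes were called in CTL mice in place of 510.

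The composition of the sdCAM libraries differed between the hemispheres beyond these genes. All 12 endothelial markers fell, with a summed level of 264 to 410 CPM ipsilateral against 1645 to 5178 CPM contralateral in CTL mice and 201 to 244 CPM against 2628 to 4870 CPM in BLZ945 mice. All 8 oligodendrocyte markers, 6 of 8 astrocyte markers and 6 of 8 choroid plexus markers fell as well, although the choroid plexus had been removed. The summed choroid plexus level was 0.502 to 383 CPM ipsilateral against 30.7 to 9175 CPM contralateral in CTL mice. In BLZ945 mice it was 201 to 1513 CPM against 1432 to 37955 CPM. The contralateral libraries of C3 and C4, at 20420 and 37955 CPM, stood above their own border macrophage markers, at 16169 and 10872 CPM. Of 10 border macrophage markers 7 rose, among them Mrc1, which encodes the CD206 used for the sort, at 1.15 on the log2 scale (SE 0.35, adjusted p = 0.0351). Their summed level was 21577 to 31887 CPM ipsilateral against 12895 to 26756 CPM contralateral in CTL mice and 21963 to 37137 CPM against 10872 to 23356 CPM in BLZ945 mice.

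Microglial markers were also abundant in the sorted cells, and 3 of 10 rose. Their summed level was 16255 to 32658 CPM ipsilateral against 16080 to 22456 CPM contralateral in CTL mice. In BLZ945 mice it was 12100 to 25502 CPM against 8249 to 15452 CPM. Beside border macrophage markers it varied by library, from 32658 against 31887 CPM in ipsilateral A4 to 12100 against 37137 CPM in ipsilateral D1. Neither neutrophil (0 of 10) nor monocyte (0 of 8) markers were called by edgeR, and their summed levels were 255 to 3101 CPM and 229 to 1532 CPM over all 14 libraries, although the sort excluded Ly6G+ and Ly6C+ cells. The contralateral libraries of BLZ945 mice held the whole of both ranges. Those of CTL mice were at 306 to 771 CPM for neutrophil and 250 to 347 CPM for monocyte markers. The part of these differences in the levels of the members was not tested, and the mean responses of 7 members are given below also on the scale of the macrophage markers.

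**Figure D2:**
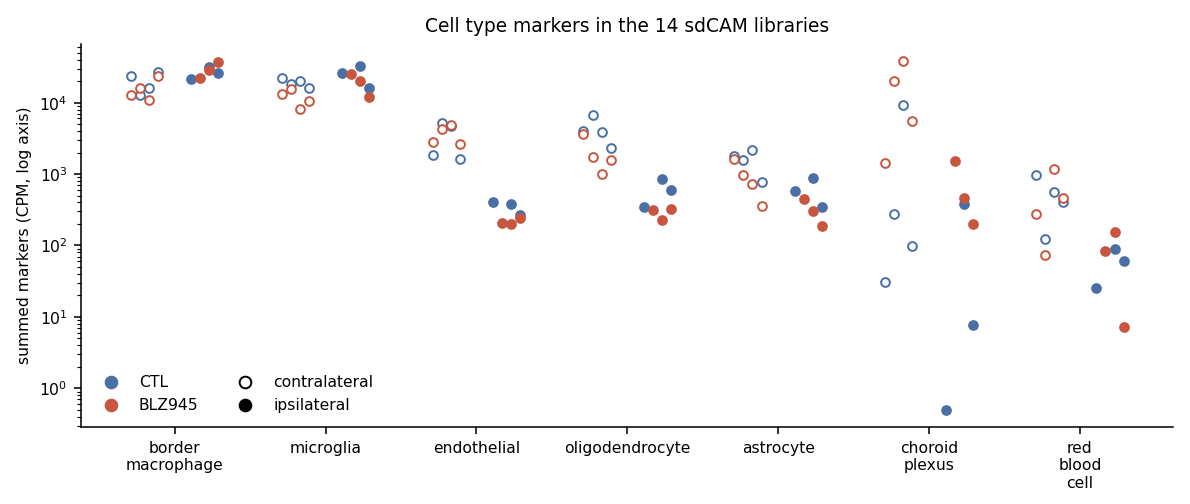
Summed CPM of 7 marker lists in the 14 sdCAM libraries, on a log axis, by treatment and hemisphere. Each point is a library. Endothelial markers lay between 201 and 410 CPM in the ipsilateral and between 1645 and 5178 CPM in the contralateral libraries, whereas border macrophage markers lay between 21577 and 37137 CPM and between 10872 and 26756 CPM.

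Msr1 in sdCAMs of CTL mice was 1009, 536 and 1094 CPM in the ipsilateral libraries of A2, A4 and B1, and 325, 135, 160 and 287 CPM in the contralateral libraries of A2, A3, A4 and B1. In BLZ945 mice it was 370, 895 and 1045 CPM in the ipsilateral libraries of C3, C4 and D1, and 466, 196, 249 and 504 CPM in the contralateral libraries of C2, C3, C4 and D1. CTL groups did not overlap. In BLZ945 mice the ipsilateral library of C3 lay below the contralateral libraries of C2 and D1, although it was 1.89-fold above its own contralateral side. The ratio within a mouse was 1.89 to 3.81, above 1 in 6 of 6 mice.

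Msr1 had a log2 fold change of 1.54 for the mean (SE 0.30, adjusted p = 0.00301) and 1.96 in CTL mice (SE 0.42, adjusted p = 0.0236). It was not called in CTL mice once any CTL mouse was left out, at 1.78 to 2.08 with adjusted p-values of 0.0622 without A2, 0.0743 without A3, 0.0675 without A4 and 0.0916 without B1. Over 19 settings the adjusted p in CTL mice ranged from 0.000262 to 0.503. In BLZ945 mice it was 1.12 (SE 0.42, adjusted p = 0.131), and 1.27 and called with the block for the mouse (adjusted p = 0.00929, range 0.00929 to 0.837). The difference between the treatments was -0.83 (SE 0.60, adjusted p = 1).

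Scaled to the 10 border macrophage markers, the mean response of Msr1 was 0.62 (adjusted p = 0.101), and scaled to these and 10 microglial markers it was 0.92 and called (adjusted p = 0.0325), within a range of 1.41e-05 to 0.335 over 19 settings. The response in CTL mice was 1.5 (adjusted p = 0.0544) and 1.66 (adjusted p = 0.0445) on these scales. In BLZ945 mice it was -0.26 (adjusted p = 0.632) and 0.18 (adjusted p = 0.778), so that its sign turned on the first of them.

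Cd36 in sdCAMs was 249, 397 and 461 CPM in ipsilateral and 326, 84.7, 135 and 351 CPM in contralateral libraries of CTL mice. In BLZ945 mice it was 361, 579 and 670 CPM against 213, 122, 94.8 and 284 CPM. The values overlapped in CTL mice, where A2 had less Cd36 on the lesioned side (0.762-fold), and not in BLZ945 mice, and 5 of 6 mice had the higher value on the lesioned side. The log2 fold change was 1.15 for the mean (SE 0.32, adjusted p = 0.0250), 0.72 in CTL mice (SE 0.46, adjusted p = 0.405) and 1.59 in BLZ945 mice (SE 0.46, adjusted p = 0.0565). The difference between the treatments, 0.87 (SE 0.65), was not called (adjusted p = 1).

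The call of Cd36 for the mean was lost without A4 (1.04, adjusted p = 0.0838) and without C4 (1.02, adjusted p = 0.0818). It was also lost on the scale of border macrophage markers (0.30, adjusted p = 0.343) and with microglial markers added (0.55, adjusted p = 0.142), over a range of 0.00494 to 0.556. In BLZ945 mice Cd36 was called by DESeq2 (1.52, adjusted p = 0.00878) and with the block for the mouse (1.80, adjusted p = 0.0193), within a range of 0.00878 to 0.566.

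Plin2 was abundant in sdCAMs on both sides and was not called there. It had 274, 169 and 342 CPM in ipsilateral and 243, 111, 101 and 222 CPM in contralateral libraries of CTL mice, and 173, 314 and 356 CPM against 423, 111, 127 and 317 CPM in BLZ945 mice. The highest value of all was that of the contralateral library of C2, whose ipsilateral partner was left out. In each of the 6 mice with both sides Plin2 was higher on the lesioned side, by 1.12-fold to 2.47-fold. The log2 fold change of the mean was 0.42 (SE 0.32, adjusted p = 0.419). With the block for the mouse it was 0.61 and called (SE 0.17, adjusted p = 0.0438), and on the scale of border macrophage markers it was -0.51 (adjusted p = 0.225), within a range of 0.0438 to 1.

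**Figure D3:**
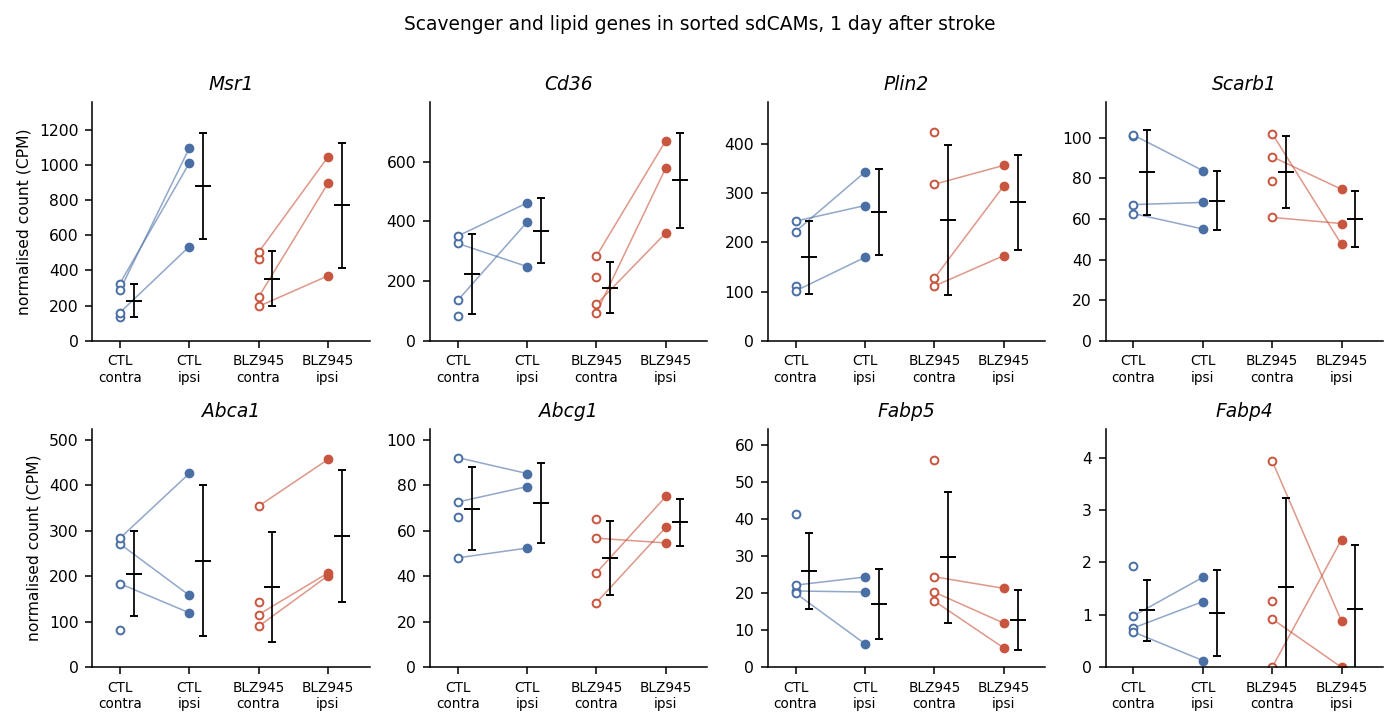
Levels of 8 of the 9 genes in sdCAMs, in normalised CPM on linear axes from 0, for each of the 14 libraries. Lines join the hemispheres of a mouse where both were used, and bars give the mean ± SD of 3 ipsilateral or 4 contralateral libraries. Msr1 and Plin2 were higher on the ipsilateral side in 6 of 6 mice and Cd36 in 5 of 6, whereas Scarb1 and Fabp5 were higher there in 1 of 6 mice each.

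Of the exporters, Abca1 had 235 ± 167 CPM ipsilateral and 205 ± 93.3 CPM contralateral in CTL mice and 288 ± 146 and 176 ± 121 CPM in BLZ945 mice (SD, n = 3 and 4). B1 and D1 stood above all other ipsilateral libraries at 426 and 456 CPM, and the log2 fold change of the mean was 0.45 (SE 0.38, adjusted p = 0.460). Abcg1 had 72.3 ± 17.5 and 69.7 ± 18.2 CPM in CTL mice and 63.7 ± 10.4 and 48.0 ± 16.3 CPM in BLZ945 mice, a log2 fold change of 0.23 for the mean (SE 0.21, adjusted p = 0.509). On the scale of border macrophage markers the mean responses were -0.39 for Abca1 and -0.67 for Abcg1, so that both signs turned, and neither was called. The SD of Abca1 was of the order of its mean differences, and both genes were higher on the lesioned side in 4 of 6 mice.

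Scarb1 and Fabp5 had the opposite sign. Scarb1 had 69.0 ± 14.4 CPM ipsilateral and 83.0 ± 21 CPM contralateral in CTL mice and 59.9 ± 13.7 and 83.0 ± 17.6 CPM in BLZ945 mice, with a log2 fold change of -0.37 for the mean (SE 0.19, adjusted p = 0.189). Fabp5 had 20.3, 6.36 and 24.4 CPM against 20.6, 41.2, 20.002 and 22.2 CPM in CTL mice, and 5.24, 11.9 and 21.3 CPM against 56.0, 17.9, 20.3 and 24.4 CPM in BLZ945 mice. The ipsilateral libraries of A4 and C3 were lowest and the contralateral libraries of A3 and C2 highest, the latter from mice with no ipsilateral library in use. For Fabp5 the log2 fold change was -0.91 (SE 0.41, adjusted p = 0.141). On the scale of border macrophage markers Scarb1 and Fabp5 were called at -1.37 (adjusted p = 0.00820) and -2.08 (adjusted p = 0.00859), beside a median of -1.14 for all genes.

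Fabp4 had 0 to 39 counts per sdCAM library, at 1.03 ± 0.816 and 1.09 ± 0.581 CPM in CTL mice and 1.11 ± 1.23 and 1.53 ± 1.69 CPM in BLZ945 mice, and the summed level of 6 adipocyte markers was at most 3.33 CPM in any sdCAM library. Marco had 0 counts in all 14 sdCAM libraries, which allows up to 0.406 CPM of the total count in the shallowest of them, counting error only.

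In sdCAMs, no member was called between BLZ945 and CTL mice on either side, nor for the difference between the responses. The edgeR test called 0 of 18297 genes in the ipsilateral comparison (1034 at an unadjusted p under 0.05, and 128 called by DESeq2), 0 in the contralateral comparison (1133, and 44 by DESeq2) and 0 for the difference between the responses (912, and 48 by DESeq2). The largest difference among the members with at least 40 CPM was that of Msr1 on the contralateral side, 0.64 (SE 0.39, adjusted p = 0.807), with 354 ± 154 CPM in BLZ945 and 227 ± 93.6 CPM in CTL mice. That of Abcg1 there was -0.54 (SE 0.28, adjusted p = 0.759).

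**Figure D4:**
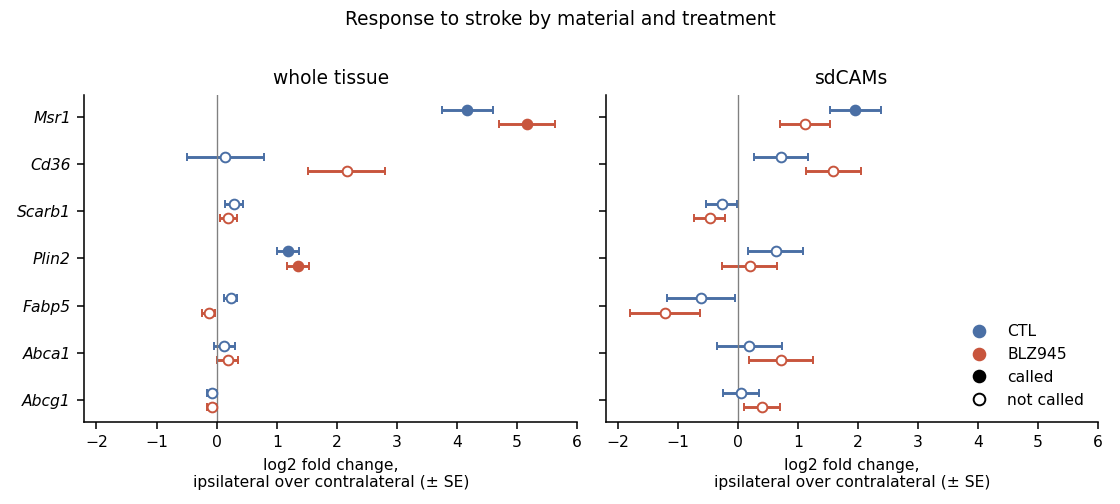
Log2 fold change, ipsilateral over contralateral, with its SE, for 7 genes in tissue and in sdCAMs, in CTL (blue) and BLZ945 (red) mice. Filled points were called. In tissue Msr1 and Plin2 were called in both treatments, and in sdCAMs only Msr1 in CTL mice, at 1.96.

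Compared with tissue, sdCAMs had more Msr1, Cd36, Scarb1, Plin2 and Abca1 and less Abcg1 on both sides, and less Fabp5 on the ipsilateral side. Both tables were fitted together over 30 libraries and averaged over treatments. On the contralateral side 6 of the 8 members tested were higher in sdCAMs (30.3% of 19389 genes) and 1 was lower (37.1%), that is 7 in either direction (67.3%). On the ipsilateral side 6 were higher (25.3%) and 2 lower (44.5%), that is all 8 that were tested (69.9%). Tissue and sorted cells differ in extraction, so that material and preparation cannot be told apart.

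The difference between the materials was largest for Msr1 on the contralateral side, with a log2 fold change of 10.11 (SE 0.41, adjusted p = 1.68e-17), and for Cd36 on the ipsilateral side, at 7.60 (SE 0.46, adjusted p = 6.92e-14). On the contralateral side Cd36 was at 7.66 (SE 0.47) and Plin2 at 5.14 (SE 0.29). Smaller differences were those of Abca1, 1.79 (SE 0.30), and Scarb1, 1.45 (SE 0.14). Abcg1 was lower in sdCAMs, at -1.16 (SE 0.15, adjusted p = 7.89e-08), and Fabp5 at -0.56 (SE 0.26, adjusted p = 0.0571) was not called on this side, where it was called with the block for the mouse (-0.66, adjusted p = 0.0285, range 0.00600 to 0.137). On the ipsilateral side Msr1 was at 6.92, Plin2 at 4.22, Abca1 at 2.03 and Scarb1 at 0.78, and lower were Abcg1 at -0.91 and Fabp5 at -1.58, all called. Fabp4 was called higher in sdCAMs on both sides, but tissue held 0 to 2 counts per library, under the floor, and no fold is given. The median of all genes was -0.15 on the contralateral and -0.75 on the ipsilateral side.

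Set against exon length, as CPM per kilobase, the order of the members was different in each material. In contralateral sdCAMs Plin2 (56.9 ± 32.8), Cd36 (54 ± 28.8) and Msr1 (44.1 ± 21) came first and did not differ beyond their spread. Abca1 (17.7 ± 9.42) followed, then Scarb1 (9.39 ± 2.01), Abcg1 (7.76 ± 2.60) and Fabp5 (7.52 ± 3.72), each with a spread that overlapped that of its neighbours, and Fabp4 was far below at 0.280. In ipsilateral sdCAMs Msr1 (121 ± 43.9) and Cd36 (117 ± 39.6) had higher means than Plin2 (71.8 ± 21.9), with spreads that overlapped.

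In contralateral tissue Abcg1 (17 ± 1.55 CPM per kilobase) and Fabp5 (11.1 ± 0.707) came first, followed by Abca1 (5.10 ± 1.03), Scarb1 (3.45 ± 0.457), Plin2 (1.58 ± 0.226), Cd36 (0.261 ± 0.194) and Msr1 (0.0383 ± 0.0292). In ipsilateral tissue Msr1 was at 0.999 ± 0.203 and Cd36 at 0.677 ± 0.426, which overlapped, and Plin2 at 3.86 ± 0.871 reached the level of Scarb1 at 4.10 ± 0.631. Exon lengths were read from GENCODE vM21 and may differ from those of the authors' annotation.

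**Figure D5:**
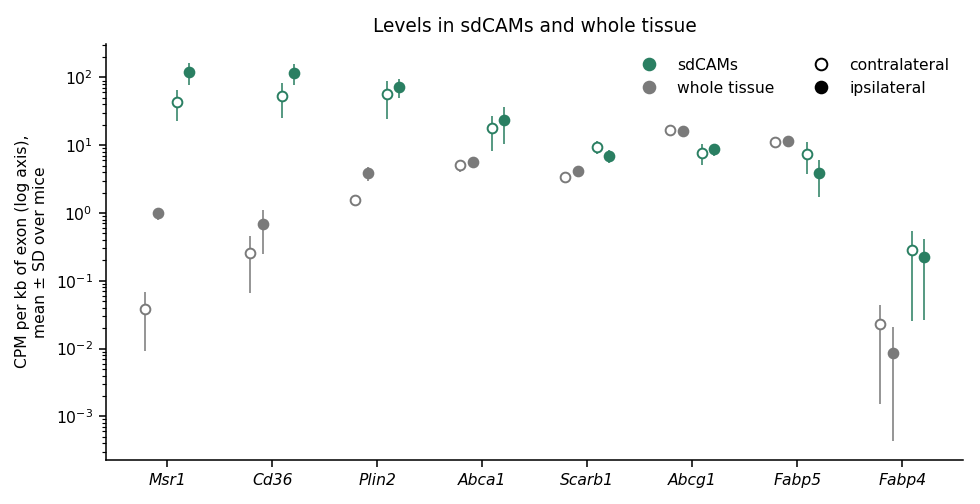
Mean level ± SD over mice in CPM per kilobase of exon, on a log axis, for 8 genes in sdCAMs (green) and tissue (grey), contralateral (open) and ipsilateral (filled). Msr1 was at 44.1 and 121 in sdCAMs and at 0.0383 and 0.999 in tissue, whereas Abcg1 was at 7.76 and 8.66 in sdCAMs and at 17 and 16.3 in tissue.

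The log2 fold change between the hemispheres was lower in sdCAMs than in tissue for 2 members, in a comparison that was chosen after the values had been seen. The difference, sdCAMs minus tissue, was -3.19 for Msr1 (SE 0.50, adjusted p = 4.11e-05), which was higher on the ipsilateral side in both materials, and -0.67 for Scarb1 (SE 0.21, adjusted p = 0.0237), which had opposite signs in them, against 17% of all genes called in this direction and a median of -0.27. None was called in the other direction, against 2.35% of all genes. Plin2, at -0.92 (SE 0.37, adjusted p = 0.0816), and Cd36, at -0.06 (SE 0.52, adjusted p = 1), were not called. With the tissue hemispheres of A3 exchanged the difference of Msr1 was -1.59 (adjusted p = 0.207, range 2.51e-08 to 0.207).

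Other genes of these pathways were read from 5 lists. In tissue, of 18 other scavenger receptors 1 rose in CTL mice and 4 in BLZ945 mice, and none fell. Cd68, the macrophage sialomucin related to lysosomal membrane proteins, rose in both, from 10.8 ± 1.80 to 19.5 ± 1.34 CPM in CTL mice (0.86 on the log2 scale, SE 0.18, adjusted p = 0.0386) and from 11.5 ± 1.79 to 28.8 ± 8.16 CPM in BLZ945 mice (1.32, SE 0.18, adjusted p = 0.000632). In BLZ945 mice the beta-glucan receptor Clec7a rose by 2.37 (SE 0.55), Cxcl16, a chemokine that as a membrane protein binds oxidised lipoprotein, by 1.75 (SE 0.39), and the endocytic receptor Stab1 by 0.65 (SE 0.14).

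The remaining tissue lists hardly moved. None of 21 lipid droplet genes, 18 genes of cholesterol synthesis and uptake or 20 genes of fatty acid binding, uptake and oxidation was called in CTL mice, BLZ945 mice or the mean. Of 19 genes of cholesterol efflux and LXR signalling 1 rose for the mean, Ch25h, which makes 25-hydroxycholesterol, by 2.25 (SE 0.47, adjusted p = 0.0123). The medians of the 5 lists for the mean lay between -0.05 and 0.20, beside -0.01 for all genes. Plin2 was thus the only lipid droplet gene called in tissue among these 21 and itself.

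In sdCAMs the lists moved in both directions. For the mean of both treatments, 4 of 18 other scavenger receptors rose, Cd163 by 1.16, Mrc1 by 1.15, Cxcl16 by 1.04 and Cd68 by 0.91, and 4 fell (Megf10, Scara3, Scarf1 and Ager). Cd163 and Mrc1 are also in the border macrophage marker list. Scarf1, which is known from endothelial cells, had a mean of 0.303 CPM in ipsilateral and 12.6 CPM in contralateral libraries of CTL mice, and Megf10, an engulfment receptor of astrocytes, was at 0 in all 3 ipsilateral libraries of CTL mice against 4.45 ± 5.72 CPM. The list medians were 0.27 for these receptors, -0.33 for lipid droplet genes, 0.21 for efflux and LXR, -0.02 for cholesterol synthesis and -0.35 for fatty acid genes, beside -0.16 for all genes.

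Among 21 lipid droplet genes in sdCAMs 1 rose, the acyl-CoA synthetase Acsl5 by 0.69 (SE 0.15), and 6 fell. Among them were the perilipins Plin4 and Plin5, at 0 CPM in all 3 and at 1.34 ± 2.32 CPM in ipsilateral libraries of CTL mice, against 2.82 ± 1.63 and 18.7 ± 14.1 CPM. Both were at 0 in all 3 ipsilateral libraries of BLZ945 mice, against 3.14 ± 1.53 and 9.09 ± 5.57 CPM. The triglyceride synthase Dgat2 fell by 2.77 (SE 0.55), Acsl3 fell by 1.27 (SE 0.29) and the monoglyceride lipase Mgll fell by 1.04 (SE 0.34). On the contralateral side Plin4 was lower in sdCAMs than in tissue, at -3.45 (SE 0.43), and Plin5 was higher, at 3.31 (SE 0.68). The contralateral sdCAM libraries also had higher endothelial and oligodendrocyte markers. The part of this difference in the falls of list genes was not tested. Of 20 fatty acid genes 1 rose, Lpl, the lipoprotein lipase, from 144 ± 123 to 681 ± 463 CPM in CTL mice and from 151 ± 114 to 475 ± 148 CPM in BLZ945 mice (1.95, SE 0.48, adjusted p = 0.0129). The 6 that fell were Pdk4, Ppargc1a, Fabp3, Fabp7, Angptl4 and Slc27a1, of which Fabp7 is known from astrocytes and Angptl4 and Slc27a1 from endothelial cells, among other cells.

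Of 20 efflux and LXR genes in sdCAMs 2 rose, Mylip, which marks the low density lipoprotein receptor for degradation, by 0.77 (SE 0.16), and the cholesteryl ester hydrolase Nceh1 by 0.75 (SE 0.22). The phospholipid transfer protein Pltp fell by 1.21 (SE 0.23), the desaturase Scd2 fell by 1.38 (SE 0.22), and Apoc1 fell by 2.53 (SE 0.68). None of 18 genes of cholesterol synthesis and uptake was called. On the scale of border macrophage markers no gene of the 5 lists was called up, and 5, 14, 7, 6 and 15 were called down among scavenger receptors, droplet, efflux, synthesis and fatty acid genes. The list medians were -0.63, -1.45, -0.70, -1.07 and -1.47 in this order, beside -1.14 for all genes. Nearly all genes called on this scale fell, and Cd163 and Mrc1 are among the markers that set it. With microglial markers added to the scale, Lpl was called up at 1.40 (adjusted p = 0.0321).

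In each treatment alone fewer list genes were called in sdCAMs, and most of them fell, as did most of all genes called. Of all 18297 genes tested, 0.426% were called up and 2.36% down in CTL mice. In BLZ945 mice 1.20% were called up and 4.41% down. In CTL mice 1 rose and 7 fell (Pltp, Scd2, Pdk4, Plin4, Megf10, Scara3 and Scarf1), and in BLZ945 mice 5 rose and 9 fell (Scd2, Pdk4, Ppargc1a, Slc27a1, Plin5, Plin4, Dgat2, Megf10 and Scarf1). Cxcl16 rose in both, by 1.05 in CTL mice (SE 0.26, adjusted p = 0.0459) and by 1.03 in BLZ945 mice (SE 0.26, adjusted p = 0.0322), from 106 ± 32.3 to 219 ± 41.6 CPM and from 151 ± 45.3 to 310 ± 20.6 CPM. Cd68 rose by 1.14 (SE 0.27), Mylip by 0.91 (SE 0.23), Lipa, the lysosomal acid lipase, by 0.83 (SE 0.21) and Acsl5 by 0.82 (SE 0.21) in BLZ945 mice.

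Between sdCAMs and contralateral tissue, 9 other scavenger receptors were higher and 5 lower, 11 and 4 lipid droplet genes, 10 and 5 efflux and LXR genes, and 8 and 7 fatty acid genes, of 18, 21, 20 and 20 tested. Of all genes 30.3% were higher and 37.1% lower. Of 18 genes of cholesterol synthesis and uptake 1 was higher and 9 were lower, with a median of -0.71 beside -0.15 for all genes. The lower ones included the regulator Srebf2 at -2.12 (SE 0.15) and Lss at -1.92 (SE 0.27). The mannose receptor Mrc1 was at 7.86 (SE 0.36), Clec7a at 7.93 (SE 0.49) and Ch25h at 6.81 (SE 0.58). Abcg4, a neuronal relative of Abcg1, was at -6.65 (SE 0.60) and Scd1 at -4.47 (SE 0.47).

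The genes whose levels ran most like those of the members were read as Pearson's r of log2 CPM, with no test, since libraries share hemisphere, mouse and composition. Over 16 tissue libraries Msr1 was most like Ccl12 (r = 0.968), Ptx3 (0.967) and Osmr (0.967), and Plin2 most like Bcl3 (0.967), Cd53 (0.966) and Stat3 (0.965). Cd36 in tissue was most like Trim30a (0.883), Tap1 (0.871) and H2-Q4 (0.865). Over 14 sdCAM libraries Cd36 was most like Tlr4 (0.958), Lasp1 (0.955) and F13a1 (0.948), Msr1 most like Ms4a6d (0.954), Eif3b (0.952) and Dcaf13 (0.937), and Plin2 most like Adam8 (0.955), Spn (0.948) and Por (0.945). No gene was among the first 3 of the same member in both materials.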

How the data were processed

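Total RNA of whole tissue and of sorted sdCAMs was sequenced by the authors as 50-cycle single reads from Nextera XT libraries, a kit that does not keep the strand. Per the labels' processing notes, bcl2fastq 2.20, STAR 2.7.11a, featureCounts 2.0.8 and DESeq2 1.46.0 were used. The genome build of these tables is not settled in the sources used here, so members are named by symbol. The deposited values are raw counts per gene, 33280 genes per table, with no normalization.

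All columns were mapped to labels, and the groups were those of treatment and hemisphere in the labels, which put all libraries in batch 1. Genes with a summed count under 8 (tissue), 7 (sdCAMs) or 15 (both) were removed. edgeR 4.0.16 (R 4.3.3) was fitted per material, and over both for sdCAMs against tissue, with TMM and quasi-likelihood tests, two-sided, and Benjamini-Hochberg adjustment over all genes tested. Genes were called below 0.05 if the log2 fold change also exceeded 0.59 in size. The fits were tested on simulated data. No pair of replicates agreed within sampling noise. Each animal gave both hemispheres. The deviations of paired libraries from their group means correlated with r of 0.214 to 0.645 in 8 tissue pairs and 0.0451 to 0.191 in 6 sdCAM pairs, and the fit with a block for the mouse was an alternative. Counting intervals and floors (3 counts) cover counting error only.

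The members and gene lists were chosen with earlier results of these data known. From each list, up to 3 called genes with the largest change and at least 1 CPM were to be named per comparison; further called list genes were named after their values were seen. For each member, the 3 genes of highest r were named. Alternatives were DESeq2 1.42.0, its size factors in edgeR, no filter, filterByExpr, fold change thresholds of none and 1, the block, leaving out each mouse, A3 exchanged and all 16 sdCAM libraries. Scaling to 10 or 20 macrophage markers, A3 exchanged with the block, and the comparison of hemisphere effects were added after the data were seen.

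Results for 1 gene of the lists are not reported here.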

Additional observations from a re-analysis of the deposited data

Results flagged for a closer look

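Of 42 groups of 4 libraries, 1 had a library that stood apart from the rest, as chance alone gives for about 1 in 20 groups. Fabp5 in the contralateral sdCAMs of CTL mouse A3 was 41.2 CPM against 20.002 to 22.2 CPM in the other 3, a gap of 0.897 of the range, past Dixon's critical value for 4 samples.

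Fabp5 in tissue had opposite signs in the 2 treatments. The mean log2 ratio of ipsilateral over contralateral was 0.223 in CTL mice, with all 4 above 0, and -0.136 in BLZ945 mice, with all 4 below 0. The tested difference of -0.37 (SE 0.15) had an unadjusted p of 0.0229 and an adjusted p of 1 in edgeR's quasi-likelihood test.

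Both sdCAM libraries that were left out held counts of Abcg1. The ipsilateral library of A3 had 19 counts in a total of 54055, or 158 CPM, and that of C2 had 34 counts in a total of 55155, or 377 CPM, beside 52.4 to 85.2 CPM in the ipsilateral libraries used. The labels describe degraded RNA in 2 samples.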

How the results depend on the processing

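Depth limited Msr1, Cd36 and Fabp4 in tissue. Contralateral levels of Msr1 and Fabp4 lay at or near the floor of 3 counts. Those of Cd36 rested on 4 to 22 counts per library in CTL mice and 0 to 18 in BLZ945 mice. In sdCAMs 3 ipsilateral mice per treatment limited the precision.

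Exchanging the hemispheres of A3 left 0 members called in tissue in CTL mice, BLZ945 mice and the mean, in place of 2 each, and 0 in place of 2 for the difference of hemisphere effects. In BLZ945 mice the folds stayed as large (5.17 for Msr1, 1.36 for Plin2). Together with the block for the mouse, the exchange left 0 in CTL mice, 2 in BLZ945 mice (Msr1 and Cd36) and 1 in the mean (Msr1). In the exchanged data the response of Cd36 in CTL tissue was -0.079 (-0.092 with the block) and that of Scarb1 -0.031, and the difference of hemisphere effects for Cd36 was 0.053. The cause was not tested.

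In sdCAMs of CTL mice 0 members were called in place of 1 with border macrophage scaling and with all 16 libraries. In BLZ945 mice 1 was called in place of 0 by DESeq2, without the filter and with filterByExpr, 2 with the block for the mouse (Cd36 and Msr1, up) and 2 with either marker scaling (Scarb1 and Fabp5, down). The marker scalings moved all genes down. Their median log2 fold change for the mean of both treatments was -1.14 with border macrophage markers and -0.87 with microglial markers added. For the mean, all 16 libraries left 0 in place of 2. For the hemisphere effects, a fold change threshold of 1, no filter and all 16 libraries each left 1 in place of 2.

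Directions turned for members that were not called. In CTL sdCAMs Abca1 was -0.27 with the block for the mouse, -0.30 and -0.055 with border macrophage scaling and with microglial markers added, and -0.12 with all 16 libraries, and Abcg1 was -0.018 by DESeq2, -0.018 with its size factors, and -0.53 and -0.32 with the marker scalings. In BLZ945 sdCAMs the marker scalings gave -1.18 and -0.74 for Plin2, -0.47 and -0.12 for Abca1 and -0.81 and -0.54 for Abcg1, border macrophage scaling gave -0.26 for Msr1, and all 16 libraries gave -0.17 for Plin2. The mean response of Plin2 was -0.51 and -0.20 and the treatment difference of Abca1 was -0.17 and -0.068 with these scalings. The difference of hemisphere effects for Cd36 was 0.0067 with the block.

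Leaving out 1 mouse gave 1 to 2 members in CTL tissue, 0 to 1 in CTL sdCAMs, 0 to 1 in BLZ945 sdCAMs, 1 to 2 for the sdCAM mean, 7 to 8 for contralateral sdCAMs against tissue and 1 to 2 for the hemisphere effects. Log2 fold changes ranged from -0.078 to 0.52 for Cd36 in CTL tissue, from -0.36 to 0.58 for Abca1 in CTL sdCAMs, from -0.10 to 0.60 for Plin2 in BLZ945 sdCAMs and from -0.32 to 0.11 for the hemisphere effects of Cd36. The block for the mouse changed no other call of a member than those given beside the results.

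Over all genes, DESeq2 called 139 in CTL tissue in place of 84, 349 in BLZ945 tissue in place of 220, 1775 in CTL sdCAMs in place of 510 and 2462 in BLZ945 sdCAMs in place of 1027. With all 16 libraries, 205, 428 and 1186 genes were called in sdCAMs of CTL mice, BLZ945 mice and the mean, in place of 510, 1027 and 2745. A log2 fold change threshold of 1 left 231 genes for the tissue mean in place of 381, and no threshold gave 578.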
